A study of Mus musculus with 10 samples.

Results

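Sin3, histone deacetylase and corepressor genes encode the machinery through which zinc finger proteins that bind methylated CpG sites are known to repress genes. The group described here holds 9 genes chosen by name from that role, Sin3a, Sin3b, Hdac1, Hdac2, Hdac3, Ncor1, Rcor1, Rbbp4 and Rbbp7. Each gene was read from its brightest singly named probe set (by mean over the 10 arrays), and 8 of the 9 genes were measured, among 22180 genes in all. Ncor1 had no probe set named for it in the platform annotation used and is not analysed here. The cells were primary fibroblasts of the mouse embryo, or MEFs, a connective tissue cell grown from embryos at embryonic day 13.5; the protocol names dorsal skin as the source and also describes mincing embryos without head and organs. Their total RNA was hybridised to one-colour Affymetrix arrays. One group held 5 arrays of Zbtb4 knock-out cells and the other held 5 arrays of wild-type cells, with no treatment given in the labels. The labels give neither the strain nor the deleted part of Zbtb4, and do not tie the arrays of a genotype to different embryos. The p-values therefore rest on the spread among these samples alone, which may be technical in part; each genotype holds arrays of both sexes by the sex markers given with Rbbp7, so its 5 arrays are not all repeats of 1 embryo. All values are the authors' deposited expression values, whose range is that of log2 values, so that a difference of 1 is a doubling of signal.

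Corepressor complexes silence genes by removing acetyl groups from histones. Sin3a and Sin3b are scaffold proteins that carry the deacetylases Hdac1 and Hdac2, the closely related pair that also works in the NuRD and CoREST complexes. Rcor1 is the scaffold of CoREST, Hdac3 works with the scaffold Ncor1, and Rbbp4 and Rbbp7 are related histone-binding proteins that take part in Sin3, NuRD and other chromatin complexes. Zbtb4, like its relatives Zbtb33 (Kaiso) and Zbtb38, is thought to call on such complexes at methylated DNA, with Sin3 described as a partner of Zbtb4 and the Ncor1 complex as a partner of Kaiso.

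The targeted gene and the identity of the cells were checked first. Zbtb4 averaged 6.07 ± 0.11 in wild-type cells and 5.45 ± 0.27 in knock-out cells (SD, n = 5 per genotype), with no overlap between genotypes (difference -0.62, exact permutation p = 0.00794, limma adjusted p = 0.628). Of 11 measured fibroblast markers, 9 lay above the upper quartile of every array, among them Col1a1, Col1a2, Vim and Thy1. Markers of other cells that such cultures can hold were mostly dimmer. Above the upper quartile on all arrays were 0 of 8 macrophage, 0 of 8 endothelial, 0 of 7 keratinocyte and 0 of 8 skeletal muscle markers. Some reached it on part of the 10 arrays, namely Des of skeletal muscle on 8, Emcn of endothelium on 4, and Fcer1g and Tyrobp of macrophages on 3 and 1. The fibroblast markers Dcn and Lum did so on 9 and 2. The macrophage markers had a mean level from 3.95 to 5.27 in knock-out and from 4.24 to 4.53 in wild-type arrays. The other 3 lists had means from 3.71 to 3.97 and from 3.55 to 3.81 (endothelial), from 3.72 to 4.01 and from 3.69 to 3.79 (keratinocyte) and from 4.11 to 4.45 and from 4.01 to 4.41 (skeletal muscle). Higher knock-out means were seen for 7 of 8 macrophage and 7 of 8 endothelial markers, 0 of which passed the limma test. Of the endothelial markers, 2 of 8 had an unadjusted p under 0.05 and no overlap between genotypes, against 5.98% and 0.987% of all genes. These were the junction genes Cdh5 (difference 0.61, limma adjusted p = 0.628, or 0.78 and 0.0334 with the cell division score as a covariate) and Esam (0.18, limma adjusted p = 0.824), both below the median of all 10 arrays. Their part in the values below was not tested.

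The promoters of the group were examined for some of the sequences that Zbtb4 and Kaiso are known to bind. RefSeq promoter windows on GRCm38.p6 were found for 7 of the 9 genes, and the 250 bases before each start were used, 9 windows in all. Those of Rbbp4 and Hdac2 are shown because these members came closest to separating the genotypes in the values that follow, with CpG sites, the bases that methylation marks, in capitals. The window of Rbbp4 lies at chr4:129335371-129335620 on the minus strand and that of Hdac2 at chr10:36974294-36974543 on the plus strand, both written 5′ to 3′.
Rbbp4: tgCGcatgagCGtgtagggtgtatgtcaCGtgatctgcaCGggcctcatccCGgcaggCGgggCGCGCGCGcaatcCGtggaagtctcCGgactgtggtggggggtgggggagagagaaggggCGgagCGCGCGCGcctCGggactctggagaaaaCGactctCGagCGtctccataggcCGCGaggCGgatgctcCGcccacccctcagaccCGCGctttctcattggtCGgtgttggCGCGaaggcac
Hdac2: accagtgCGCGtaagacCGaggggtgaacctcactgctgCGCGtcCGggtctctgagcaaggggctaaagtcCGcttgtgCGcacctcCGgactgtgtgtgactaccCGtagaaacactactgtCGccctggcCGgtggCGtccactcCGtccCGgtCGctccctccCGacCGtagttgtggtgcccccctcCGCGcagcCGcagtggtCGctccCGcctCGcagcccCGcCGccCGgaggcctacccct

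Both windows are dense in CpG sites, with 30 for Rbbp4 and 27 for Hdac2, against a median of 6 over 32851 promoter windows of the same length. Rbbp7 and Rcor1 had 34 and 25 CpG sites, Sin3b 10, and the 2 start windows each of Sin3a and Ncor1 had 12 and 19 and 2 and 34. The motifs searched on both strands were the Kaiso site TCCTGCNA and the forms CTGCCATC and CCGCCATC of the Zbtb4 site, of which the last holds a CpG. These motifs were found in 0 of the 9 windows, where 4.03%, 1.09% and 0.874% of all windows hold them. No other sequence was searched, methylated CpG sites included, so the windows may hold binding sites of other forms. No methylation or binding was measured in these samples.

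Knock-out cells kept signal for all 8 measured corepressor genes at levels close to wild type. The means were lower in knock-out cells for 7 genes and higher for Sin3b, where 49.3% of all genes had a lower knock-out mean. The median log2 difference, knock-out minus wild type, was -0.065 over the 8 genes and 0.0020 over all genes. Without regard to sign, the median size of the difference was 0.081 over the 8 genes and 0.078 over all genes. The 95% intervals of the 8 differences reached no lower than -0.37 and no higher than 0.28. A change of array signal beyond 1.29-fold down or 1.21-fold up thus lay outside every one of them. Each interval is for 1 gene taken alone and for the probe set used. The signal of Zbtb4, the targeted gene, was itself 1.54-fold lower, and how far signal follows the amount of RNA was not tested.

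None of the 8 genes passed the test. With limma fitted across all genes and p-values adjusted by the Benjamini-Hochberg method, 0 of 8 had an adjusted p under 0.05, as did 0.0% of all genes, and the smallest adjusted p among the 8 was 0.821, for Rbbp4. At an unadjusted p under 0.05 there was 1 of 8, Rbbp4, against 5.98% of all genes in either direction and 2.73% with a lower knock-out mean. The arrays of both genotypes stayed apart for 1 of 8, Hdac2, against 0.987% of all genes in either direction and 0.446% with the knock-out arrays lower. In bulk RNA, fewer cells that express a gene and less RNA of it per cell cannot be told apart.

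**Figure D1:**
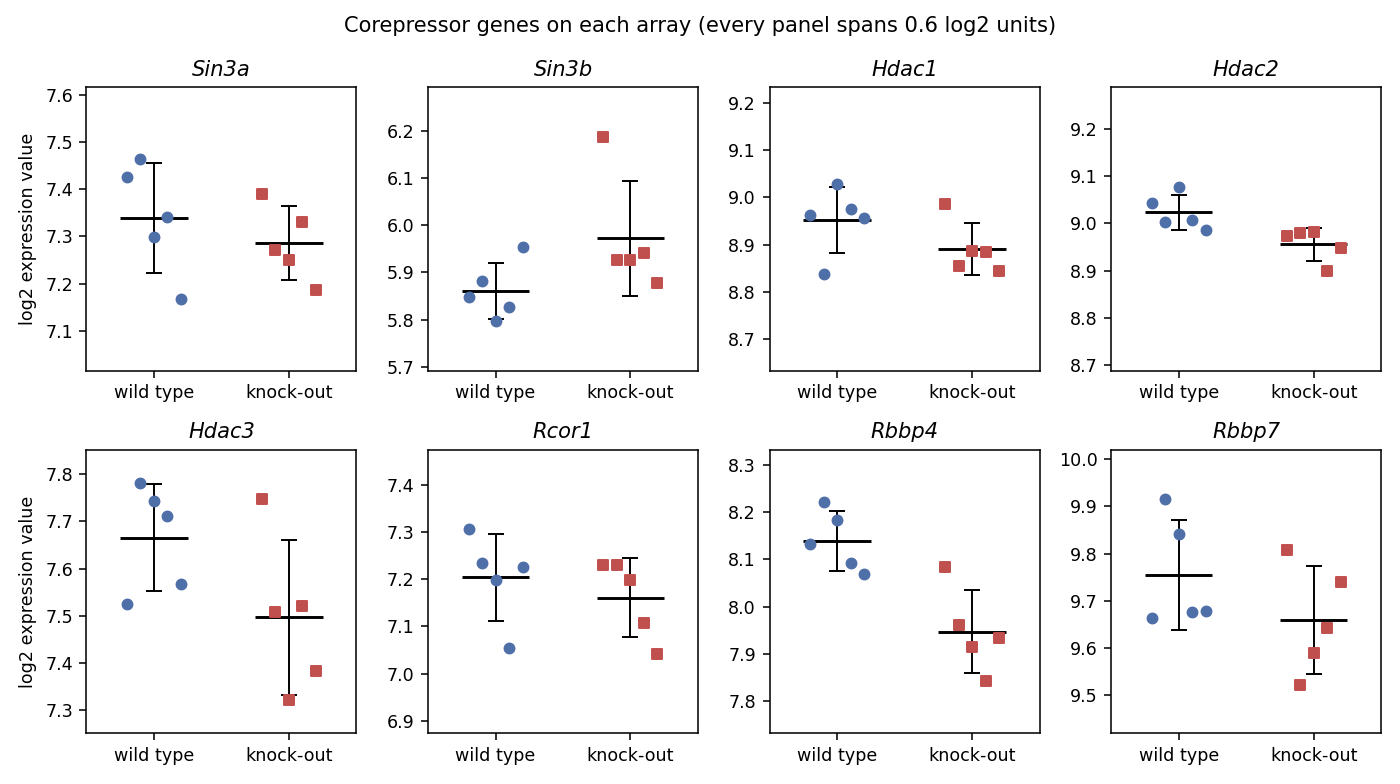
The log2 expression value of each measured corepressor gene on each of the 5 wild-type arrays (circles) and 5 knock-out arrays (squares), with the mean as a horizontal line and the SD as a bar, in panels that span the same number of log2 units. The genotypes stayed apart for Hdac2 alone; Rbbp4 overlapped through knock-out array 1 and wild-type array 5, and the highest Sin3b value was on knock-out array 1.

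The deacetylases of the Sin3, NuRD and CoREST complexes had the most even signal of the group. Hdac2 was at 8.972, 8.980, 8.981, 8.898 and 8.947 on knock-out arrays 1 to 5 and at 9.044, 9.003, 9.078, 9.006 and 8.987 on wild-type arrays 1 to 5. All knock-out arrays lay below all wild-type arrays, but the gap between the nearest 2, knock-out array 3 and wild-type array 5, was 0.0055. The difference was -0.068 (SE 0.063; 95% interval -0.20 to 0.069), a signal 1.05-fold lower (limma adjusted p = 0.886). An exact permutation test, two-sided and over all 252 splits into 5 and 5 arrays, gave p = 0.00794, the smallest it can give. The SD of Hdac2 within genotypes was 0.036, and 0.149% of genes had a smaller one; limma moves each gene's spread towards that of all genes, which the permutation test does not.

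Hdac1, the paralogue of Hdac2, averaged 8.95 ± 0.070 in wild-type cells and 8.89 ± 0.056 in knock-out cells (SD, n = 5 per genotype). Its knock-out values ran from 8.84 to 8.98 and its wild-type values from 8.84 to 9.03, so the genotypes overlapped over most of their range. The difference was -0.061, with a 95% interval from -0.21 to 0.087 (limma adjusted p = 0.904, exact permutation p = 0.190). Its size was close to that of Hdac2.

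Hdac3, the deacetylase of the Ncor1 complex, spread most widely. It was at 7.75, 7.51, 7.32, 7.52 and 7.38 on knock-out arrays 1 to 5 and at 7.52, 7.78, 7.74, 7.71 and 7.57 on wild-type arrays 1 to 5. Knock-out array 1 lay among the highest wild-type arrays while the other 4 knock-out arrays lay below every wild-type array, array 4 by less than the rounding of these values. The difference was -0.17 (SE 0.092; 95% interval -0.37 to 0.030; limma adjusted p = 0.841, exact permutation p = 0.0873). Leaving out 1 array at a time moved it between -0.23 and -0.13.

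The scaffold proteins differed little. Sin3a averaged 7.34 ± 0.12 in wild-type cells and 7.29 ± 0.078 in knock-out cells (SD, n = 5 per genotype), a difference of -0.053 with a 95% interval from -0.22 to 0.12 (limma adjusted p = 0.931, exact permutation p = 0.413). Its knock-out arrays, from 7.19 to 7.39, lay within the range of the wild-type arrays, from 7.17 to 7.46. Rcor1 averaged 7.204 ± 0.093 in wild-type and 7.161 ± 0.084 in knock-out cells, the smallest difference of the group at -0.043, with a 95% interval from -0.20 to 0.12 (limma adjusted p = 0.946, exact permutation p = 0.444).

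Sin3b, the paralogue of Sin3a, was the gene with a higher knock-out mean. It was at 6.19, 5.93, 5.93, 5.94 and 5.88 on knock-out arrays 1 to 5 and at 5.85, 5.88, 5.80, 5.83 and 5.95 on wild-type arrays 1 to 5. Apart from knock-out array 1 at the top, the values of both genotypes lay close together, and wild-type array 5 lay above 4 of the knock-out arrays. The difference was 0.11, with a 95% interval from -0.056 to 0.28 (limma adjusted p = 0.854, exact permutation p = 0.0714), and it came to 0.057 without knock-out array 1. Sin3b was also the dimmest of the 8 probe sets relative to its arrays, above the median of all 10 arrays but above the upper quartile of 0, where the other 7 genes lay above the upper quartile of all 10.

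Rbbp4, the histone-binding subunit shared by Sin3 and NuRD, had the largest difference of the group. It was at 8.08, 7.96, 7.92, 7.84 and 7.93 on knock-out arrays 1 to 5 and at 8.13, 8.22, 8.18, 8.09 and 8.07 on wild-type arrays 1 to 5. Only knock-out array 1 reached the wild-type range, where it stood 0.016 above wild-type array 5. The difference was -0.19 (SE 0.072; 95% interval -0.35 to -0.038), a signal 1.14-fold lower (limma adjusted p = 0.821, exact permutation p = 0.0159). Leaving out 1 array at a time moved it between -0.23 and -0.17.

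A further probe set that carries the symbol of Rbbp4 alone did not show this difference. Probe set 17418982 averaged 6.57 ± 0.069 in wild-type cells and 6.60 ± 0.041 in knock-out cells (SD, n = 5 per genotype), a difference of 0.032 with a 95% interval from -0.11 to 0.18, in a fit of all 23521 singly named probe sets (limma adjusted p = 0.956, exact permutation p = 0.397). In the same fit, probe set 17430354, the one used above, differed by -0.19 (limma adjusted p = 0.821). The interval of each probe set leaves out the estimate of the other, and the part of the transcript that each one reads was not examined.

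**Figure D2:**
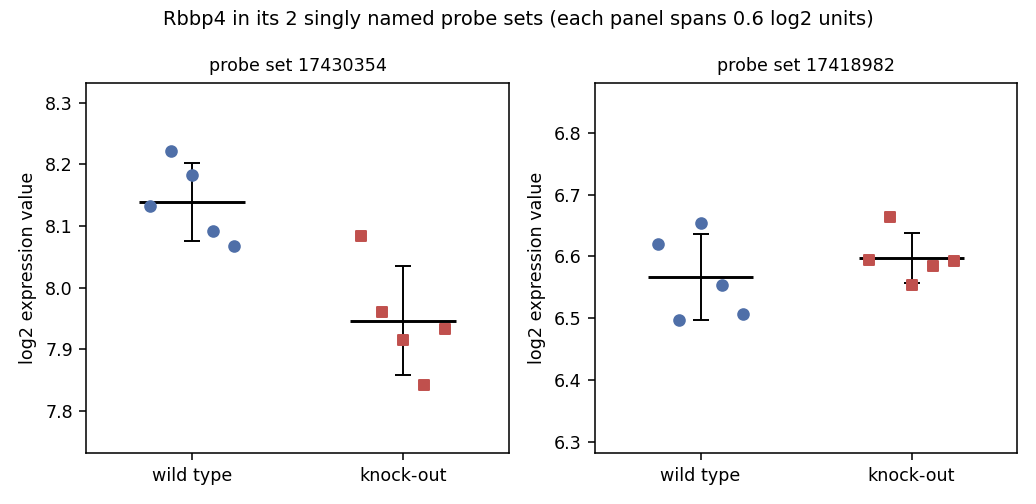
The log2 expression value of Rbbp4 on the 5 wild-type (circles) and 5 knock-out arrays (squares) in its 2 singly named probe sets, with means as lines and SDs as bars. The left probe set, with means of 8.14 and 7.95, overlapped through knock-out array 1 and wild-type array 5; the right one, with means of 6.57 and 6.60, overlapped over most of its range.

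Rbbp7, the paralogue of Rbbp4 on the X chromosome, averaged 9.76 ± 0.12 in wild-type cells and 9.66 ± 0.11 in knock-out cells (SD, n = 5 per genotype). The difference was -0.095, with a 95% interval from -0.28 to 0.085 (limma adjusted p = 0.879, exact permutation p = 0.222). Knock-out values ran from 9.52 to 9.81 and wild-type values from 9.66 to 9.92. Both genotypes mixed sexes in the same numbers: the mean of Kdm5d, Eif2s3y and Uty, genes of the Y chromosome, was 5.89 to 6.42 on knock-out arrays 1 and 3 and wild-type arrays 1 and 3, and 2.49 to 2.78 on the other 6, and Xist, expressed from an inactive X chromosome, was at 2.99 to 4.497 and 10.11 to 10.32. Rbbp7 ran from 9.59 to 9.84 on the first 4 arrays and from 9.52 to 9.92 on the other 6, so that the ranges overlapped. With the level of the Y-linked genes as a covariate its difference was -0.094.

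Among the knock-out arrays, array 1 stood apart. It had the highest knock-out value of 7 of the 8 genes, all but Hdac2, while knock-out array 5 had the lowest value of 4. Some genes outside the group, Gps2 and Hdac4 among them, also had their highest knock-out value on array 1. Others, such as Hdac7, did not. The share of all genes highest on this array was not counted, so whether this is particular to the group was not tested. Averaged over the 8 genes, the deviation from each gene's mean was 0.094 on knock-out array 1, from -0.088 to -0.050 on the other knock-out arrays, and from -0.0065 to 0.086 on the wild-type arrays. Leaving out a gene's highest knock-out array lowers its knock-out mean by construction. Without knock-out array 1, the differences of Hdac3, Rbbp4 and Rbbp7 were -0.23, -0.23 and -0.13. Those of Sin3a, Hdac1, Hdac2 and Rcor1 were -0.080, -0.085, -0.072 and -0.060, and that of Sin3b was 0.057.

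Cell division genes, a list of genes of DNA replication and mitosis, varied from array to array in the same data. Of 19 measured genes of this kind, 18 had a lower knock-out mean, with a median difference of -0.21. None passed the limma test over all genes, and 4 of 19 had an unadjusted p under 0.05, against 5.98% of all genes. Their mean deviation per array, used as a score, ran from -0.38 on knock-out array 4 to 0.13 on knock-out array 1, and from -0.15 on wild-type array 5 to 0.21 on wild-type array 4. Mki67, a widely used marker of dividing cells, averaged 8.49 ± 0.22 in wild-type and 8.29 ± 0.19 in knock-out cells.

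Rbbp4 had the highest correlation with this score over all 10 arrays. After removal of the genotype means, Pearson's r over the 10 arrays was 0.77 (permutation p = 0.00917, adjusted over 8 genes 0.0734) and Spearman's rho 0.66 (permutation p = 0.0454, adjusted 0.363). Without knock-out array 4 and wild-type array 5, r was 0.56. These 2 arrays lay farthest from the median of the score once its genotype means were removed. For Hdac2, r was 0.71 (permutation p = 0.0211, adjusted 0.0844) and rho 0.47 (permutation p = 0.180, adjusted 0.386), but r was 0.23 without the same 2 arrays, on which the relation rests. Hdac3 had an r of 0.51 (permutation p = 0.133, adjusted 0.356) and a rho of 0.56 (permutation p = 0.0945, adjusted 0.378), with an r of 0.80 without them. Without the same 2 arrays, Sin3b went from 0.21 to 0.71 and Hdac1 from 0.31 to 0.58, so that the order of the members depends on those arrays. None of the 8 relations passed after adjustment, and these p-values take the arrays as independent, which the labels do not state. They may also be somewhat too small, because the deviations were shuffled across genotypes. With the score as a covariate in the limma fit, the difference of Rbbp4 was -0.13, that of Hdac3 -0.091, and that of Hdac2 -0.040, with adjusted p-values of 0.913, 0.963 and 0.984. Sin3a came to -0.0074, Rcor1 to -0.022, Hdac1 to -0.040, Rbbp7 to -0.063 and Sin3b to 0.13, and none of the 8 passed. Whether cell division accounts for any of these differences was not tested.

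**Figure D3:**
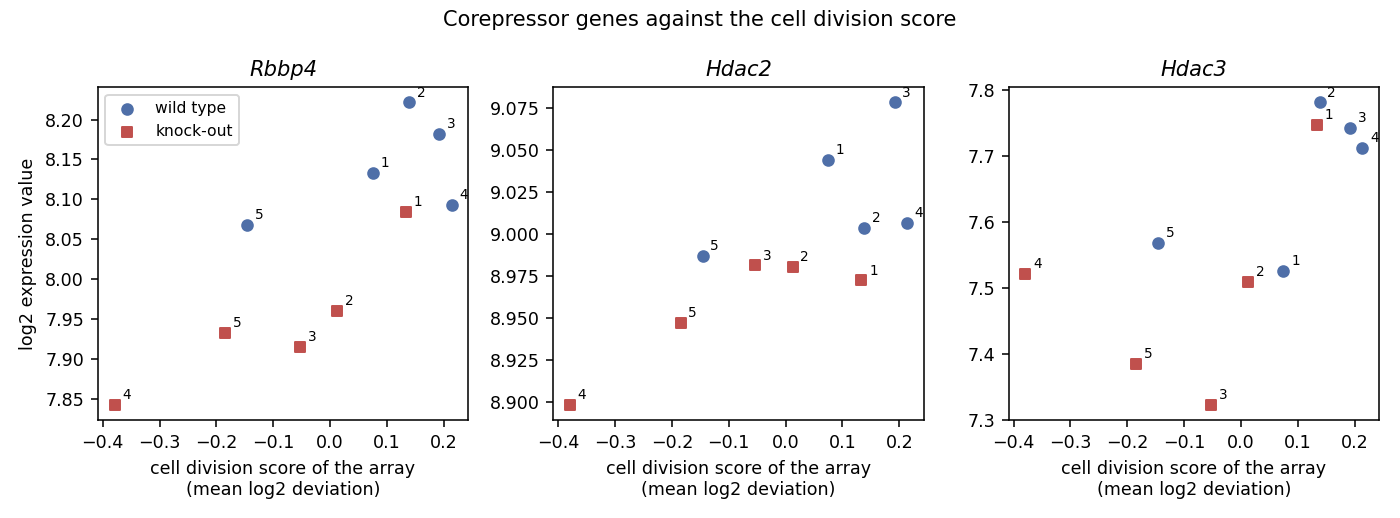
The log2 expression value of Rbbp4, Hdac2 and Hdac3 on each array against the cell division score of that array, the mean log2 deviation of 19 genes, for wild-type (circles) and knock-out arrays (squares) labelled with their replicate number. Knock-out array 4 has the lowest score at -0.38 and the lowest Rbbp4 and Hdac2 values, at 7.84 and 8.90.

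The members were also compared with one another over the arrays, with genotype means removed. Of 28 pairs, 25 had an r above 0, with a median of 0.35 and a range from -0.11 to 0.68. The pairs reuse the same 8 genes and 10 arrays. The share above 0 and the median over pairs of all genes were not computed, so whether the members stand out was not tested. The closest pair was Rbbp4 and Rbbp7, with r = 0.68 (permutation p = 0.0303, adjusted over the pairs 0.471), rho = 0.47 (permutation p = 0.178, adjusted 0.567) and r = 0.68 without knock-out arrays 1 and 4. Hdac3 and Rbbp4 followed with r = 0.67 (permutation p = 0.0336, adjusted 0.471), rho = 0.53 (permutation p = 0.122, adjusted 0.567) and r = 0.41 without knock-out arrays 1 and 3. The paralogues Hdac1 and Hdac2 had r = 0.41 (permutation p = 0.243, adjusted 0.568), rho = 0.32 (permutation p = 0.367, adjusted 0.734) and r = 0.36 without knock-out array 1 and wild-type array 2. Sin3a and Sin3b had r = 0.27 (permutation p = 0.455, adjusted 0.708), rho = 0.54 (permutation p = 0.115, adjusted 0.567) and r = 0.75 without wild-type arrays 2 and 5. No pair passed after adjustment.

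The genes with the pattern most like a member's over the 10 arrays, after removal of the genotype means, were also sought. Symbols of gene models, clones, small RNAs, and olfactory or vomeronasal receptors, with some like them, were left out of this search. The nearest genes are given as a description because the highest of so many correlations is high by choice alone. Closest to Rbbp4 were Rtel1 (r = 0.97), a helicase gene of telomere maintenance, Cntln (r = 0.97), a centrosomal protein gene, and Kif15 (r = 0.96), a kinesin gene of the mitotic spindle. Sin3a was nearest to the receptor gene Acvr1 (r = 0.96), Klrg1 (r = 0.96) and Reep6 (r = 0.95), and Sin3b to Tgfb1i1 (r = 0.96), Fdx1 (r = 0.95) and Ubxn7 (r = 0.95). The splicing factor gene Sf3a1 (r = 0.92), Elmo1 (r = 0.91) and Ino80e (r = 0.91) came next to Hdac1, and Stxbp3-ps (r = 0.94), Krt10 (r = 0.91) and Fam98b (r = 0.90) next to Hdac2. Those for Hdac3 were Gnpat (r = 0.96), Herc4 (r = 0.95) and Lman2 (r = 0.95), for Rcor1 Snx27 (r = 0.95), Prr7 (r = 0.95) and Acyp1 (r = 0.94), and for Rbbp7 Crnkl1 (r = 0.91), Elp6 (r = 0.91) and Eqtn (r = 0.90).

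The other subunits of the complexes, with some related genes, were looked at through lists of 47 genes, of which 40 were measured. Among these 40, 27 had a lower and 13 a higher knock-out mean, with a median difference of -0.045. None passed the limma test over all genes in either direction, 2 had an unadjusted p under 0.05 (Mta1 and Hdac4), and the genotypes stayed apart for Mta1 alone, against the backgrounds of 5.98% and 0.987% given above.

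**Figure D4:**
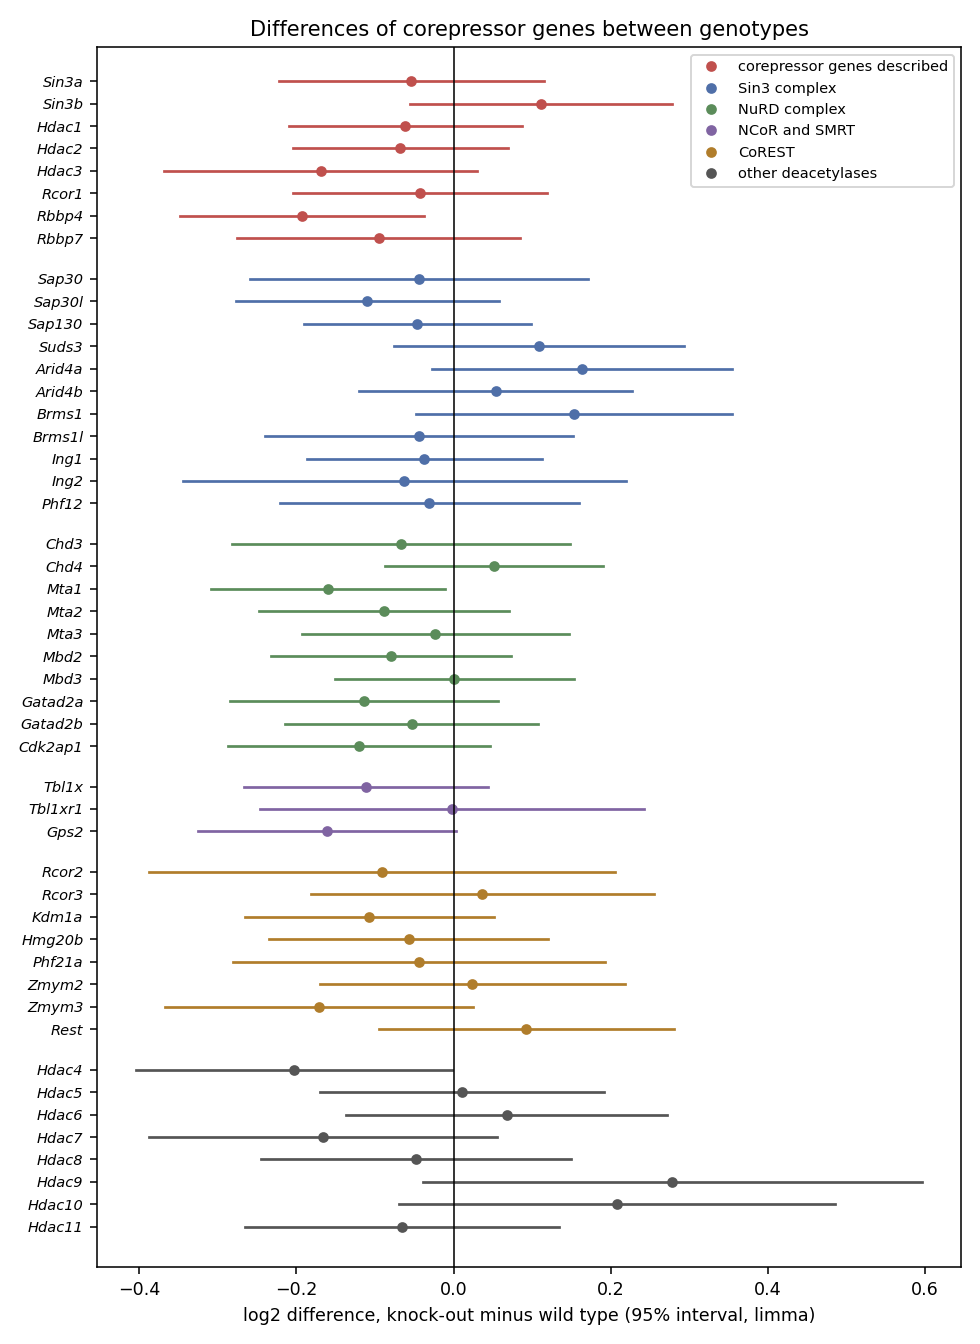
Points give the log2 difference, knock-out minus wild type, of the 8 measured corepressor genes and of 40 other genes. These 40 belong to the complexes or are related genes. Lines are 95% intervals from limma, and colours mark the lists. Intervals of Rbbp4, Mta1 and Hdac4 leave out 0 before adjustment; none of these genes passed after it.

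In the NuRD complex, 8 of 10 measured subunits had a lower knock-out mean, with a median difference of -0.073. Mta1, a subunit that brings Hdac1 and Hdac2 into NuRD, was at 9.09, 9.05, 9.06, 8.99 and 9.07 on knock-out arrays 1 to 5 and at 9.13, 9.19, 9.32, 9.14 and 9.28 on wild-type arrays 1 to 5. The genotypes did not overlap, with a gap of 0.038. The difference was -0.16 with a 95% interval from -0.31 to -0.010 (limma adjusted p = 0.823, exact permutation p = 0.00794). Cdk2ap1 differed by -0.12 and Gatad2a, another NuRD subunit gene, by -0.11 (limma adjusted p = 0.842 and 0.852). Cdk2ap1 came to -0.068 with the mean of all its singly named probe sets and to -0.081 without knock-out array 2. Gatad2a came to -0.071 without wild-type array 5, and the median of the list to -0.11 without knock-out array 1.

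Of 11 measured subunits of the Sin3 complex, 7 had a lower and 4 a higher knock-out mean, with a median difference of -0.037. That median moved between -0.042 and -0.0071 when 1 array was left out, the latter without knock-out array 2, and was -0.0056 under quantile normalization. The members with the smallest p-values went both ways. Arid4a, which encodes a retinoblastoma-binding subunit, differed by 0.16, Brms1 by 0.15 and Sap30l, a relative of the subunit gene Sap30, by -0.11 (limma adjusted p = 0.841, 0.842 and 0.854). Brms1 came to 0.088 without wild-type array 3 and Sap30l to -0.070 without wild-type array 5.

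Beyond Ncor1 itself, 3 subunits of the NCoR and SMRT complexes were measured, and each had a lower mean, with a median difference of -0.11. Gps2, a subunit that lies 16 protein-coding genes from Zbtb4 on chromosome 11, was at 6.22, 6.07, 5.99, 6.15 and 6.08 on knock-out arrays and at 6.33, 6.35, 6.11, 6.29 and 6.24 on wild-type arrays 1 to 5. Its difference was -0.16 with a 95% interval from -0.32 to 0.0026 (limma adjusted p = 0.830, exact permutation p = 0.0317). Genes near the deletion can also differ between genotypes through the chromosome segment they share with it, which cannot be told apart here from an effect of Zbtb4. Tbl1x differed by -0.11 and its relative Tbl1xr1 by -0.0020 (limma adjusted p = 0.843 and 0.999), and the sign of Tbl1xr1 turned under quantile normalization, to 0.026.

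The CoREST list, which counts Rest beside the subunits, had 5 genes lower and 3 higher of 8 measured. Its median difference was -0.051. That median came to -0.092 without knock-out array 1, to -0.022 without wild-type array 3 and to -0.019 under quantile normalization. Zmym3 differed by -0.17, the lysine demethylase gene Kdm1a by -0.11 and Rest, the factor that recruits CoREST to neuronal genes, by 0.092 (limma adjusted p = 0.840, 0.852 and 0.888). Rest came to 0.048 without knock-out array 1.

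The other zinc-dependent histone deacetylases divided evenly, 4 lower and 4 higher of 8 measured, with a median difference of -0.018, or 0.0068 without wild-type array 3. Hdac4, a deacetylase that shuttles between nucleus and cytoplasm, was at 6.97, 6.65, 6.53, 6.80 and 6.71 on knock-out arrays 1 to 5 and at 6.86, 6.90, 6.87, 6.90 and 7.14 on wild-type arrays 1 to 5. Knock-out array 1 again lay within the wild-type range and the other 4 below it. The difference was -0.20 (limma adjusted p = 0.830, exact permutation p = 0.0635), or -0.15 without wild-type array 5. Hdac9 differed by 0.28 and Hdac7 by -0.17 (limma adjusted p = 0.840 and 0.842). Hdac9 was dim, with means of 3.94 in wild-type and 4.22 in knock-out cells, where array medians ran from 4.29 to 4.34. Its difference came to 0.14 without knock-out array 4 and to 0.045 with the cell division score as a covariate. Hdac7 came to -0.097 without wild-type array 4.

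Of the zinc finger proteins that use these complexes, Zbtb33 and Zbtb38 differed by -0.024 and -0.051 (limma adjusted p = 0.977 and 0.941). With quantile normalization Zbtb33 had the opposite sign, at 0.0097.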

How the data were processed

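The deposited table holds the authors' log2 expression values for 41345 probe sets on 10 arrays; the scale was judged from the values, and the authors' background correction, summary and normalization are not given in the sources used here. If arrays were equalised, a shift in RNA per cell is lost. The platform annotation gave the gene names; 23521 probe sets have 1 symbol, and of those the brightest by mean stands for each gene. Array medians over genes ran from 4.29 to 4.34 and pairs of arrays correlated at 0.989 to 0.994; the number of arrays limits the precision.

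Knock-out minus wild type was fitted over all 22180 genes by limma 3.58.1 (lmFit, then eBayes; R 4.3.3), with no covariate, and adjusted by the Benjamini-Hochberg method (threshold 0.05). Exact permutation tests used the 252 choices of 5 arrays, and correlations 100000 permutations of the arrays' deviations from the genotype means. The latter shuffles ran across genotypes and so did not keep the genotype means removed. The p-values of all correlations may therefore be somewhat too small. Scripts were tested on simulated data. Figures were drawn with matplotlib 3.10.9. Promoters came from RefSeq.

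Members and gene lists were chosen with earlier results of these data known, and tests and alternatives were set with them in view. Genes named are the members, Zbtb4 and its relatives, up to 3 genes per list with the smallest p-values, Gps2, Mki67, the sex markers and the 3 genes most like each member. The fibroblast markers named, Des, Emcn, Fcer1g, Tyrobp, Cdh5, Esam and Thg1l were chosen after their values were seen. Alternatives were quantile normalization, median centring, leaving out the dimmest 40% of genes, the mean of all probe sets, trend and robust moderation, array weights, a replicate block, Y-linked or cell division level as a covariate, a threshold of 0.1, the other probe set of Rbbp4, and leaving out each array.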

Additional observations from a re-analysis of the deposited data

Results flagged for a closer look

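In 102 sets of 5 arrays, the lowest or highest array was compared with its nearest neighbour, and the gap was over 0.71 of the whole range in 5, where about 1 in 20 such sets does so by chance. Sin3b on the knock-out arrays had a share of 0.795, from array 1 at 6.19 against the next at 5.94. Fdx1, one of the genes most like Sin3b, had a share of 0.804 on the same array, at 6.77 against 6.54. It was chosen for its likeness to Sin3b on these arrays, so it is not a separate observation. Wild-type array 5 stood apart for Hdac4 with a share of 0.855 (7.14 against 6.90), for Sap30l with 0.750 (6.85 against 6.68) and, on the low side, for Mki67 with 0.849 (8.10 against 8.56).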

How the results depend on the processing

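Each of the 8 members' differences was recomputed under 19 alternatives, and Rbbp4 under 20; of the 153 values, 31 equal the reported difference by construction (other moderation, fewer genes tested, the balanced block, 1 probe set to average). Of the other 122, 121 had the same direction, and none of the 153 passed the threshold. The exception was the other probe set of Rbbp4, at 0.032. The count of members past the threshold was 0 in each alternative, at an adjusted p under 0.1 too, and their median difference ran from -0.087 to -0.040. Over all genes the count went from 0 to 1 with the cell division score as a covariate (Cdh5) and ran from 0 to 1 when 1 array was left out (Thg1l, without wild-type array 5). Whether arrays are paired by replicate number was not tested, and the following values cannot decide it. Same-numbered arrays correlated at -0.045 to 0.17 in their deviations, and 3 of the 10 arrays correlated best with their own number in the other genotype. Same-numbered arrays agreed in the sex markers at 5 of 5 numbers. With the replicate block, which leaves each difference as it was by construction, 0 genes passed, and the limma adjusted p of Rbbp4, at -0.19, was 0.841. Of the remaining genes named, Tbl1xr1 turned to 0.026 under quantile normalization, 0.0017 with the Y-linked covariate, 0.10 with the cell division covariate and lay between -0.080 and 0.062 when 1 array was left out. Zbtb33 turned to 0.0097 under quantile normalization and 0.0032 with array weights, and ran from -0.056 to 0.018; Zbtb38 ran from -0.11 to 0.0092. Mki67 turned to 0.0020 with the cell division covariate, which holds Mki67 itself; other causes were not tested. With the same covariate the medians of the Sin3 and CoREST lists were 0.018 and 0.042. The number of arrays limits the precision; the widest interval of a member spans 0.20 on either side of its estimate. Leaving out 1 array also moved Sin3a between -0.096 and -0.022, Rcor1 between -0.080 and -0.013, and Rbbp7 between -0.13 and -0.055.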
